A study of Mus musculus with 10 samples.

Results

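Cytosolic ribosomal proteins are the protein subunits of the ribosomes that translate nuclear-encoded mRNA. They were defined here as the protein-coding genes whose symbols begin with Rpl (large subunit) or Rps (small subunit), leaving out the Rps6k kinases and symbols that contain -ps. The rule used names only and no expression value. It found 87 of the 55952 genes listed, on 19 chromosomes. By name they comprised 31 small subunit proteins, 43 large subunit proteins, 3 proteins of the P stalk, 8 paralogs of subunits, and 2 genes, Rps19bp1 and Rps23rg1, that are named after a subunit without being one.

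RNA was measured by bulk sequencing of kidneys of C57BL/6 mice that had been kept for 30 days at an altitude of 400 m (control, 5 libraries) or 4200 m (hypoxia, 5 libraries). The labels name no genetic change or drug in either group, so altitude is the one labelled difference, and it includes whatever else differed between the sites. Age and sex were not given in the sources used here, nor whether each library came from a separate mouse, so the p-values below measure only the spread between these libraries. The extraction text speaks of retina, whereas all 10 libraries are labelled kidney. The retina markers summed to between 2.86 and 5.58 FPKM in the controls and to between 0.836 and 2.79 FPKM in the hypoxia libraries. The proximal tubule markers summed to 5735 to 7536 FPKM in the controls. FPKM are fragments per kilobase of gene length, with the scaling between libraries that the deposited values carry.

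A ribosome is built in the nucleolus from ribosomal RNA and one copy of nearly every ribosomal protein, with the P stalk proteins Rplp1 and Rplp2 as the exception that is present in more copies. Most ribosomal protein mRNAs start with a run of pyrimidines, the 5′ terminal oligopyrimidine (TOP) tract, through which the kinase complex mTORC1 and the protein LARP1 set how well they are translated. Because that control acts on translation, the amount of mRNA measured here does not show how much ribosomal protein was made. Making ribosomes is among the costliest things a cell does, in the energy-demanding cells of the kidney tubule as elsewhere.

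A short pyrimidine run near the start was searched for as one spelling of such a tract, and 6 of the members that hold it are shown. RefSeq windows from 250 bases before to 50 bases after the annotated start (build GRCm38.p6) were available for 67 of the 87 genes. The 7 letters CTCTTTC, read on the gene's strand, were present in the windows of 13 of these 67 genes (19.4%), against 4.6% of the 27025 genes with a window. The first 3 below rose under hypoxia when hypoxia replicates 4 and 5 were left out, and the last 3 did not pass the test. In that fit Rpl35, Rpl28 and Rpl11 had log2 fold changes of 0.12, -0.15 and -0.14. The 6 are examples and do not stand for all 13. The letters searched are in capitals, 5′ to 3′ on the strand of the gene.
Rpl5, chr5:107900499-107900523, plus strand: ctacagccaCTCTTTCtcacgtcgc
Rpl26, chr11:68901580-68901604, plus strand: cgtgtagttCTCTTTCcttttgcgg
Rps15a, chr7:118116145-118116169, minus strand: cggcccactCTCTTTCtgccatctt
Rpl35, chr2:39005116-39005140, minus strand: cgccctttcCTCTTTCtctcgaacc
Rpl28, chr7:4792956-4792980, plus strand: ctcgtgtctCTCTTTCcgtctccgg
Rpl11, chr4:136053443-136053467, minus strand: gctatgcctCTCTTTCcccctctcc

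In Rpl35 and Rpl28 the run begins at the annotated first base of the transcript (position 1), and in Rpl26 at position 24. In Rps15a, Rpl5 and Rpl11 it begins 13, 20 and 65 bases before the annotated RefSeq start. The gene bounds in the deposited data include the run for Rps15a (up to 118116188) and Rpl5 (from 107900502). For Rpl11 (up to 136053428) they do not. For Rps15a and Rpl5, whether the run lies in the transcript therefore depends on the start used. The core of the ETS family binding site, CCGGAAG on either strand, was found for 26 of the 67 genes (38.8%), against 9.93% of all genes with a window. The YY1 letters AAGATGGC on either strand were found for 6 of them (8.96%), against 3.19% of all. Among members that were tested and had a window, CTCTTTC as written stood in 3 of the 13 called higher without hypoxia replicates 4 and 5 and in 10 of the 51 others. In that fit the median log2 fold change was 0.22 for the 13 members with these letters and 0.081 for the 51 without them. A relation between the letters and the rise was not tested. A match to letters is a description of the sequence and not evidence of a bound factor, and a window without them may hold a longer or differently spelled run.

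The libraries held 16561672 to 17845464 reads assigned to genes. Hypoxia replicates 4 and 5 stood apart from the rest. Hypoxia replicate 5 had 5113 FPKM summed over 8 B and plasma cell markers and 6560 FPKM over 5 red cell markers, where no control exceeded 9.32 and 609.9 FPKM. Its T cell markers summed to 68.6 FPKM (at most 3.49 in the controls), its neutrophil markers to 260.2 FPKM (at most 2.45), and its proximal tubule markers to 3403 FPKM. Macrophage markers in this library summed to 244 FPKM (at most 54.4 in the controls). Of 10 pancreas acinar markers, 9 lay above every control there, with a sum of 60.3 FPKM (at most 49.7 in the controls). Hypoxia replicate 4 had 1060 FPKM of adrenal cortex markers (at most 1.55 in the controls) and 657 FPKM of fat markers (at most 185 in the controls). Counts of members are therefore given over all 10 libraries and without these 2, and in neither case can fewer cells of a type be told apart from less RNA per cell.

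Ribosomal protein mRNA was highest in the library with the most blood-cell RNA and, by a smaller amount, higher in the other hypoxia libraries. Summed over all 87 genes, the level was 9846, 10386, 9723, 9650 and 9049 FPKM in the 5 control libraries and 10326, 10560, 11283, 11005 and 17938 FPKM in hypoxia replicates 1 to 5. The mean was 9731 ± 478 FPKM in the controls and 12222 ± 3217 FPKM under hypoxia (SD, n = 5 each), and 10723 ± 499 FPKM in hypoxia replicates 1 to 3 (SD, n = 3). The summed FPKM of hypoxia replicate 1 lay below the highest control, so the sums of the groups overlapped. As a share of reads the genes took 1.43% to 1.6% in the controls, 3.28% in hypoxia replicate 5 and 1.70% to 1.86% in the other 4 hypoxia libraries. The share of reads, which does not carry the scaling of the deposited FPKM, did not overlap between the groups.

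The same order held gene by gene. On the log2(FPKM + 0.5) scale, the median difference from the control mean over the 84 tested genes was between -0.092 and 0.086 in the control libraries. It was 0.036, 0.099, 0.21, 0.20 and 0.89 in hypoxia replicates 1 to 5. The number of the 84 genes above the highest control was 33, 41, 50, 49 and 70 in the same libraries. The same count over all tested genes was not taken, so these numbers do not show that the members differ from other genes.

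**Figure D1:**
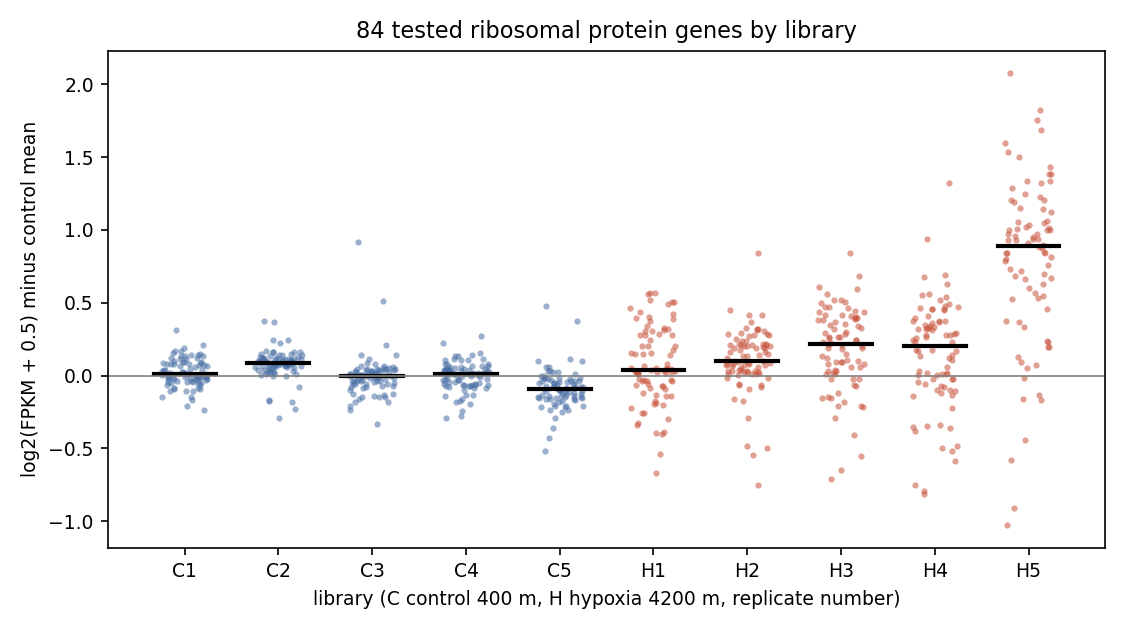
Difference of log2(FPKM + 0.5) from the mean of the 5 controls for each of the 84 tested ribosomal protein genes (points) in each library, with the median of the library as a bar. The bar lies between -0.092 and 0.086 in the controls, at 0.89 in hypoxia replicate 5 and between 0.036 and 0.21 in the other hypoxia libraries.

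The question of the comparison is how the kidney transcriptome differs after 30 days at high altitude, and here it was asked of the 84 members with a mean of at least 0.5 FPKM. Rpl10l, a testis paralog of Rpl10, was listed at 0 in every library, and the paralogs Rpl39l and Rpl36al stayed below the limit. Over all 10 libraries, 7 of the 84 genes rose and 1 fell at an adjusted p under 0.05 (limma, Benjamini-Hochberg over all 15264 tested genes). Of all tested genes 3.66% rose and 7.79% fell. The 7 that rose were Rps12, Rps4x and Rps14 of the small subunit and Rpl3, Rpl26, Rpl5 and Rpl7 of the large subunit. The median log2 fold change of the 84 genes was 0.29, beside 0.012 over all tested genes. All 5 hypoxia libraries lay above all 5 controls for 24 members, and all 5 lay below for none (5.68% and 8.54% of all tested genes).

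Without hypoxia replicates 4 and 5, 19 of the 84 genes rose and none fell, beside 4.53% and 7.75% of the 14724 genes tested in those libraries. At an unadjusted p under 0.05 the limma counts were 31 higher and 4 lower, and limma voom on recovered read counts called 29 higher and 0 lower. Of all 14724 tested genes, 1834 were higher and 2347 lower at an unadjusted p under 0.05, and voom called 1100 and 977. Over all 10 libraries these backgrounds were 1882 and 2569, and 791 and 923, of 15264 genes. Without hypoxia replicates 4 and 5 the median log2 fold change was 0.13, beside -0.00046 over all tested genes. More genes thus passed the test while their median difference was smaller. The 7 genes that rose over all libraries were all among the 19. Hypoxia replicates 1 to 3 lay above every control for 24 members, which are those separated over all libraries, and below every control for Rps29 alone (9.73% and 11.8% of all tested genes). The count over all 10 libraries depended on single libraries. It was 25 higher and 4 lower without hypoxia replicate 5, where 7.39% of all tested genes were higher and 11% lower. It was 13 higher without hypoxia replicate 2 (3.87% of all tested genes). Without any one control or without hypoxia replicate 3 or 4 it was 0 to 3 higher, in fits that called 1.44% to 2.51% of all tested genes higher. The count without hypoxia replicate 1 is not listed here, and that fit called 2.4% of all tested genes higher.

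Markers of some other cells moved with this comparison also in the libraries that were kept. In the fit without hypoxia replicates 4 and 5, no T cell, macrophage, endothelium, collecting duct or red cell marker was called in either direction. Only 1 of the 5 T cell markers could be tested there. The B and plasma cell markers summed to 4.61 to 9.32 FPKM in the controls and 47.7 to 78.0 FPKM in hypoxia replicates 1 to 3. Most of that was the immunoglobulin chain Igkc (37.7 to 60.0 FPKM), and the B cell receptor gene Cd79a stayed between 0.160 and 0.642 FPKM there, against at most 0.502 FPKM in the controls. All 4 podocyte markers rose without hypoxia replicates 4 and 5, and their sum was 75.9 to 95.0 FPKM in the controls, 109.6 to 140.2 FPKM in hypoxia replicates 1 to 3, 142 FPKM in replicate 4 and 67.8 FPKM in replicate 5. The 4 neutrophil markers summed to 0.304 to 2.45 FPKM in the controls and 3.61 to 35.2 FPKM in hypoxia replicates 1 to 3, and S100a8 among them rose (adjusted p = 0.0395, limma). Genes of the mitochondrial genome took 8.68% to 9.72% of reads in the controls and 10.1% to 12.3% in hypoxia replicates 1 to 4. The part of any of these in the result was not tested.

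Within the small subunit, which reads the mRNA, 3 of the 31 proteins rose over all libraries and 11 without hypoxia replicates 4 and 5, and none fell in either (limma; at an unadjusted p under 0.05, 0 and 1 were lower, and limma voom called 0 lower in both). Its median log2 fold change was 0.39 and 0.16 in the same order. Rps12 (ENSMUSG00000061983, GRCm38 chromosome 10, 23785183 to 23787275, minus strand), a protein of the head of the small subunit whose gene carries small nucleolar RNA genes in its introns, measured 45, 39.6, 46.3, 48.6 and 45.6 FPKM in the controls. In hypoxia replicates 1 to 5 it measured 66.7, 61.7, 72.3, 86.4 and 160.4 FPKM. Every hypoxia library was above every control, with the fifth far above the other 4. The log2 fold change of Rps12 was 0.89 (SE 0.23, adjusted p = 0.0311, limma) over all libraries and 0.57 (SE 0.08, adjusted p = 0.00464) without hypoxia replicates 4 and 5. In these kept libraries the mean level was 1.49 times the control mean.

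Rps4x (ENSMUSG00000031320, chromosome X, 102184941 to 102189394, minus strand), the X-linked member of its family, measured 167, 186, 192, 174 and 171 FPKM in the controls. It measured 250.1, 222, 272, 285 and 465 FPKM under hypoxia. The groups did not overlap. Its log2 fold change was 0.70 (SE 0.18, adjusted p = 0.0308, limma), and 0.47 (SE 0.09, adjusted p = 0.0102) without hypoxia replicates 4 and 5.

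Rps14 (chromosome 18), a protein of the platform of the small subunit, measured 106, 113, 102, 107 and 96.3 FPKM in the controls. It measured 145, 131, 155, 148 and 274 FPKM under hypoxia, all above the controls. The log2 fold change was 0.64 (SE 0.18, adjusted p = 0.0430, limma), and 0.45 (SE 0.08, adjusted p = 0.010) without the 2 libraries.

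Rps3a1, a small subunit protein near the mRNA exit, was among the most abundant subunits, with 364, 389, 393, 391 and 340.4 FPKM in the controls and 487, 445, 507, 499 and 829 FPKM under hypoxia. The groups did not overlap. It passed the test without hypoxia replicates 4 and 5 (log2 fold change 0.35, SE 0.08, adjusted p = 0.0245, limma) and not over all libraries (0.52, SE 0.16, adjusted p = 0.0596). Rps15a, Rps7, Rps6, Rps25 and Rps24 also rose without the 2 libraries, with log2 fold changes from 0.26 for Rps24 to 0.42 for Rps15a. Rps6, the target of S6 kinase that gives the Rps6k genes their name, had a log2 fold change of 0.31 (adjusted p = 0.0451) in that fit.

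The other end of the small subunit was Rps29, a short zinc-binding protein, which measured 180.1, 165, 143, 169 and 145 FPKM in the controls. In hypoxia replicates 1 to 5 it measured 109.7, 141, 120.4, 113 and 175 FPKM. Hypoxia replicates 1 to 4 were below every control and the fifth stood inside the control range. Its log2 fold change of -0.38 without hypoxia replicates 4 and 5 missed the threshold (SE 0.11, adjusted p = 0.0553, limma), and over all libraries it was -0.30 (adjusted p = 0.179).

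Within the large subunit, which forms the peptide bond, 4 of 43 proteins rose over all libraries and 7 without hypoxia replicates 4 and 5, and none fell in either (limma; at an unadjusted p under 0.05, 0 and 2 were lower, and limma voom called 0 lower in both). The medians were 0.29 and 0.12. Rpl3 (ENSMUSG00000060036, chromosome 15, 80077791 to 80091868, minus strand), one of the earliest proteins to join the large subunit and a neighbour of the catalytic centre, measured 95.5, 105, 99.1, 104 and 92.1 FPKM in the controls. It measured 131, 128, 149.8, 147 and 229 FPKM under hypoxia, with no overlap. The log2 fold change was 0.63 (SE 0.15, adjusted p = 0.0246, limma) over all libraries and 0.46 (SE 0.08, adjusted p = 0.00838) without the 2.

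Rpl5 (ENSMUSG00000058558, chromosome 5, 107900502 to 107909005, plus strand) binds the smallest ribosomal RNA of the large subunit together with Rpl11, and the free complex inhibits Mdm2, the ubiquitin ligase of p53. It measured 77.7, 86.7, 79.3, 87.4 and 76.1 FPKM in the controls and 102, 109, 117, 112 and 163 FPKM under hypoxia. The log2 fold change of Rpl5 was 0.54 (SE 0.12, adjusted p = 0.0212, limma) and 0.42 (SE 0.08, adjusted p = 0.0105) without the 2 libraries. Its partner Rpl11 measured 93.2, 86.5, 83.4, 85.0 and 76.5 FPKM in the controls and 64.7, 90.7, 78.0, 65.1 and 87.9 FPKM under hypoxia, so that its groups overlapped. The log2 fold change of Rpl11 was -0.15 (SE 0.11, adjusted p = 0.408), and the difference between the partners was not tested.

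Rpl26 (ENSMUSG00000060938, chromosome 11, 68901583 to 68906989, plus strand), which lies near the exit of the peptide tunnel, measured 146, 169, 152, 159 and 154 FPKM in the controls and 230.1, 179, 220.5, 241 and 347 FPKM under hypoxia. Rpl7 (ENSMUSG00000043716, chromosome 1, 16101295 to 16104662, minus strand), an RNA-binding protein of the large subunit, measured 143, 147, 149, 141 and 139 FPKM in the controls and 189, 174, 198, 196 and 291 FPKM under hypoxia. In both genes the lowest hypoxia library was replicate 2 and the groups did not overlap. The log2 fold changes were 0.61 (SE 0.15, adjusted p = 0.0304, limma) and 0.52 (SE 0.13, adjusted p = 0.0307). Without hypoxia replicates 4 and 5 they were 0.42 (adjusted p = 0.0227) and 0.38 (adjusted p = 0.0102).

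**Figure D2:**
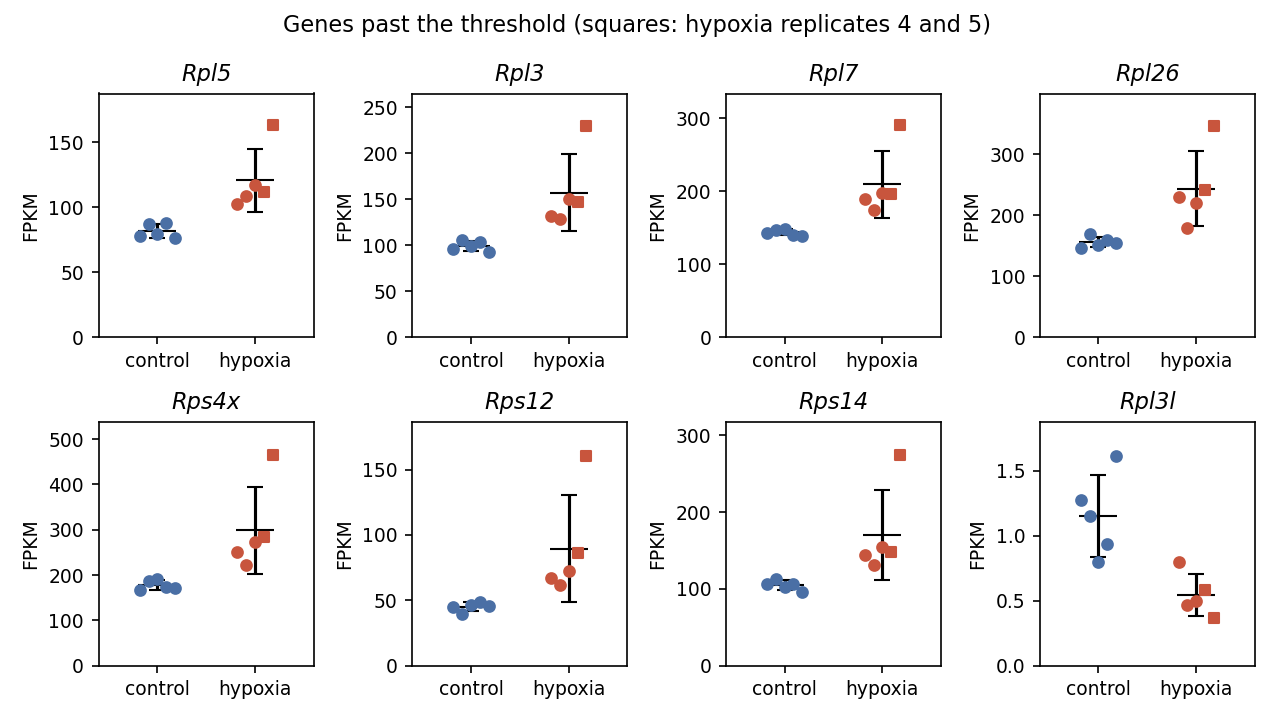
FPKM of the 8 ribosomal protein genes that passed the test over all 10 libraries, in controls (blue) and hypoxia (red), with each library as a point, the mean and its SD (n = 5) as bars, and hypoxia replicates 4 and 5 as squares. In the 7 genes that rose the 3 circles of hypoxia replicates 1 to 3 already lie above all controls, while Rpl3l has a control and a hypoxia library at nearly the same level.

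Rpl12 and Rpl4 rose as well without hypoxia replicates 4 and 5, with log2 fold changes of 0.35 and 0.27 (adjusted p = 0.0108 and 0.0492, limma). Rpl12, at the base of the stalk, measured 31.6 to 35.9 FPKM in the controls, 40.8 to 48.0 FPKM in hypoxia replicates 1 to 4 and 114 FPKM in replicate 5. The lowest values of the large subunit belonged to Rpl38, Rpl13a and Rpl41, at -0.40, -0.35 and -0.29 without the 2 libraries (adjusted p = 0.115, 0.0740 and 0.397). Rpl38, known for its part in the translation of Hox mRNAs, measured 132, 143, 116, 133 and 114 FPKM in the controls and 79.6, 128, 86.5, 73.0 and 135 FPKM under hypoxia, where replicates 2 and 5 stood in the control range. When hypoxia replicate 5 alone was left out, Rpl38, Rps29 and Rpl13a passed the threshold as lower, with log2 fold changes of -0.50, -0.41 and -0.39 (adjusted p = 0.0444, 0.0196 and 0.0270).

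**Figure D3:**
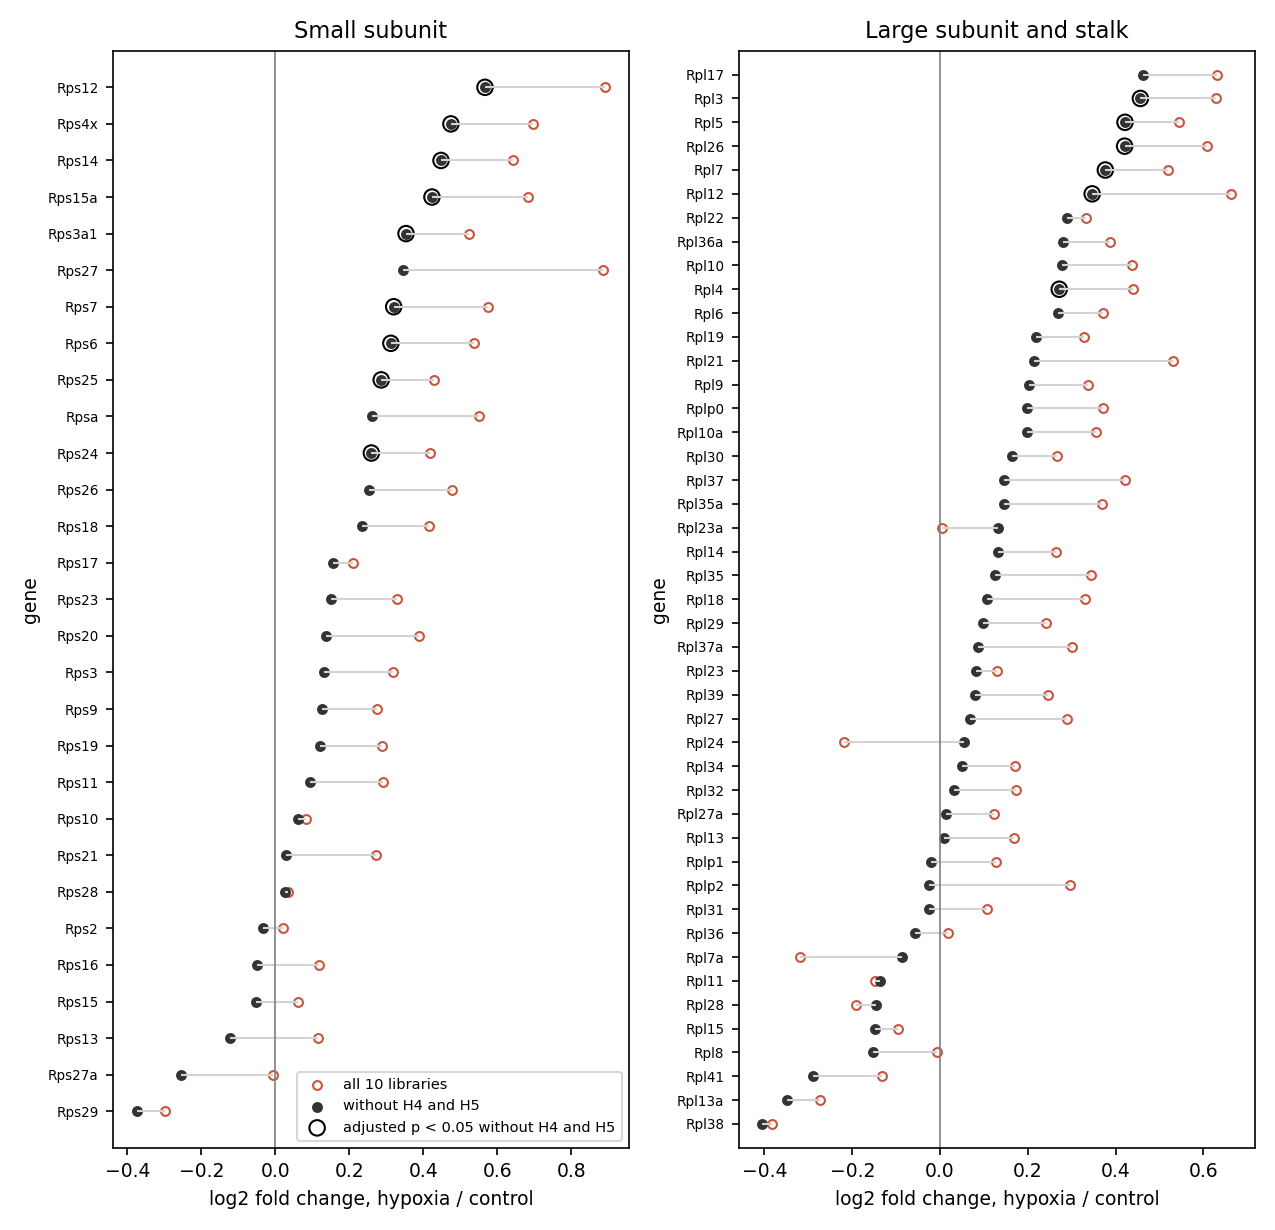
Log2 fold change, hypoxia over control, for small subunit genes (left) and large subunit and stalk genes (right), over all 10 libraries (open) and without hypoxia replicates 4 and 5 (filled; ringed where the adjusted p is under 0.05). A few genes that are not reported here are left out of the plot. The filled points run from -0.40 for Rpl38 to 0.57 for Rps12.

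None of the 3 proteins of the P stalk, which recruits the elongation factors, passed the test in either fit (limma; 1 was higher at an unadjusted p under 0.05 in each, and limma voom called 0 and 1). Rplp0, the anchor of the stalk, measured 388, 396, 397, 371 and 376 FPKM in the controls and 429.9, 411, 491, 485 and 735 FPKM under hypoxia, with no overlap but an adjusted p of 0.129 (limma, log2 fold change 0.37, SE 0.15). Its log2 fold change was 0.20 (adjusted p = 0.129) without hypoxia replicates 4 and 5. Rplp1, the most abundant member, measured 669 to 761 FPKM in the controls, 668 to 718 FPKM in hypoxia replicates 1 to 4 and 1140 FPKM in replicate 5. Rplp2 measured 57.9 to 66.6 FPKM in the controls, 60.1, 60.9 and 60.5 FPKM in hypoxia replicates 1 to 3, and 77 and 145 FPKM in replicates 4 and 5. For Rplp1 and Rplp2 the log2 fold change was 0.13 and 0.30 over all libraries and -0.02 for both without the 2, so their direction changed when those libraries were left out.

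Rps27a, which is made as a fusion to ubiquitin, varied inside the control group: it measured 39.2, 35.7, 76.5, 33.2 and 29.8 FPKM there. Under hypoxia it measured 33.6, 32.9, 34.5, 40.7 and 66.6 FPKM. One library in each group stood well above the others, and the log2 fold change was -0.01 (SE 0.27, adjusted p = 0.989, limma). Fau and Rack1, subunits whose names fall outside the rule, did not pass in either fit, with log2 fold changes of 0.30 and 0.43 over all libraries.

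The paralogs replace or accompany a standard subunit in some tissues, and 5 of the 8 could be tested. Rpl3l, which takes the place of Rpl3 in heart and skeletal muscle, was the one member that fell: it measured 1.27, 1.15, 0.797, 0.938 and 1.61 FPKM in the controls and 0.799, 0.469, 0.497, 0.583 and 0.367 FPKM under hypoxia. The lowest control and the highest hypoxia library were nearly equal, and the levels rested on 11 to 44 reads. The log2 fold change was -0.66 (SE 0.17, adjusted p = 0.0345, limma), and -0.60 (adjusted p = 0.0679) without hypoxia replicates 4 and 5.

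Rps27rt, an intronless copy of Rps27, measured 219, 326, 236, 261 and 236 FPKM in the controls and 376, 315, 453, 237 and 735 FPKM under hypoxia. It rose without hypoxia replicates 4 and 5 (log2 fold change 0.57, SE 0.15, adjusted p = 0.0401, limma), although hypoxia replicate 2 lay below 1 control. Rps27 itself measured 43.6 to 52.3 FPKM in the controls and 50.2 to 202 FPKM under hypoxia (log2 fold change 0.35, adjusted p = 0.0774, without the 2 libraries). Reads from such near-identical copies can be split between them in counting, so the levels of Rps27 and Rps27rt are uncertain. Rps27l, Rpl7l1 and Rpl22l1 had control means of 137, 23.9 and 9.68 FPKM and hypoxia means of 130.2, 21 and 9.43 FPKM, and none passed the test. Rps19bp1, a nucleolar protein that binds Rps19, measured 11.4 ± 1.04 FPKM in the controls and 12.6 ± 2.63 FPKM under hypoxia (SD, n = 5 each, adjusted p = 0.527).

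Although a ribosome holds nearly all of its proteins in equal number, the deposited levels of the 77 standard subunits ranged widely. Their control means ran from 0.594 FPKM for Rps10 to 703 FPKM for Rplp1 with a median of 100.2 FPKM, and the middle of the distribution lay between 47.7 and 143.7 FPKM (lower and upper quartile). The 3 highest were Rplp1, Rplp0 and Rps3a1, at 703, 386 and 376 FPKM, and 4 subunits were under 10 FPKM. These 4 were Rps10, Rpl24, Rpl13a and Rpl21. The length behind an FPKM value is part of this spread: the deposited gene lengths of the members were a median 2.35 times, and at most 9.80 times, the length of the gene's principal transcript. Rescaled to the principal transcript, the quartiles of the control means became 172 and 332 FPKM and the lowest and highest values 2.55 and 793 FPKM.

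Ribosomal protein genes have many processed pseudogenes, intronless copies of the mRNA, and reads that match several places can be assigned to either. Of the 87 members, 62 had pseudogenes carrying their name, 309 in all. Rps10 (ENSMUSG00000052146, chromosome 17, 27630418 to 27636669, minus strand) is the extreme case. It measured 0.646, 0.527, 0.438, 0.810 and 0.547 FPKM in the controls and 0.518, 0.762, 0.631, 0.488 and 0.902 FPKM under hypoxia. Its 4 named pseudogenes summed to 143 FPKM in the controls and 202 FPKM under hypoxia, and they held 98.1% of the reads assigned to Rps10 and its copies together in the controls. The same share was 85.8% for Rpl17, 58.4% for Rpl21 and 37.5% for Rps12, and it was over 50% for no other member. The levels of these genes as deposited are therefore uncertain. Only pseudogenes named as the member followed by -ps were counted. Copies under other names were not examined, so a low share does not show that a level is certain.

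When the reads of the named pseudogenes were added to each parent gene, a step chosen after seeing these values, 8 members rose and 1 fell over all libraries, where 3.67% and 7.79% of all tested genes did. Rps10 was then among those that rose, with a log2 fold change of 0.47 (adjusted p = 0.0310, limma), and 0.38 (adjusted p = 0.00984) without hypoxia replicates 4 and 5. With the gene alone, Rps10 had a log2 fold change of 0.08 (adjusted p = 0.764). Rps12 kept its call, at 0.74 (adjusted p = 0.0411). Of the 318 ribosomal protein pseudogenes listed, 90 could be tested, of which 6 rose (6.67%) and 1 fell (1.11%), beside 3.66% and 7.79% of all tested genes. Their summed level was 1658 to 1811 FPKM in the controls, 1904 to 1978 FPKM in hypoxia replicates 1 to 4 and 3153 FPKM in replicate 5, with no overlap between the groups.

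**Figure D4:**
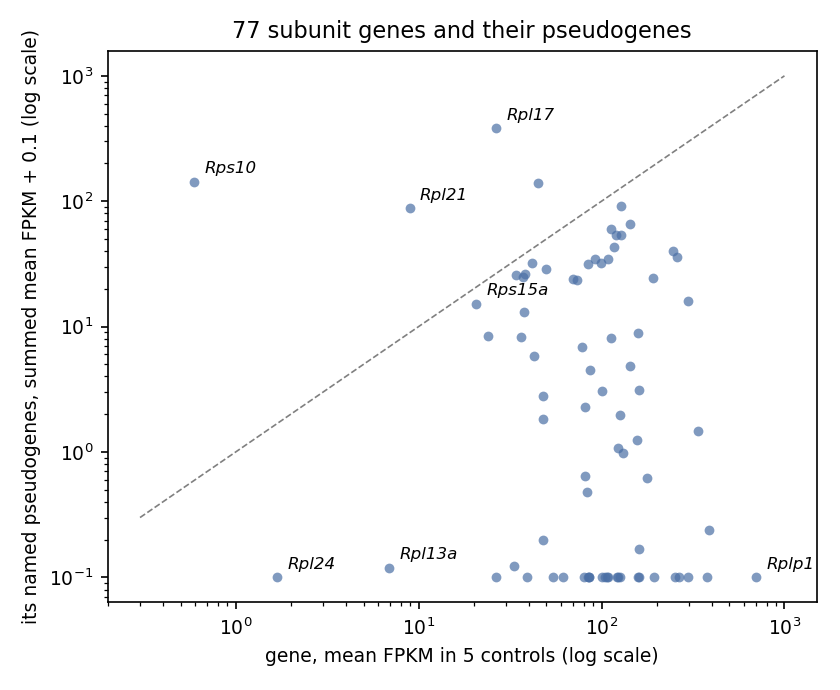
Mean FPKM of each of the 77 standard subunit genes in the 5 controls (horizontal, log scale) against the summed mean FPKM of the pseudogenes that carry its name, plus 0.1 (vertical, log scale), with equal levels as a dashed line. Rps10 lies at 0.594 FPKM with its pseudogenes at 143 FPKM, and genes without a named pseudogene or with none expressed lie at the lower edge.

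Members of lower GC content had the higher log2 fold changes. GC content of the principal transcript, median 51.7%, had a Spearman correlation of -0.29 with the log2 fold change over the 84 tested members, and -0.40 without hypoxia replicates 4 and 5. Over all tested genes with an annotated length the same correlations were -0.18 and -0.22. Genes share libraries and are not independent replicates, so these are descriptions. In the fit without the 2 libraries, the 29 members under 50% GC had a median of 0.16, and the 55 others had a median of 0.067. Among all genes tested the medians on the same sides of 50% were 0.042 and -0.050. Coding length, median 453 bases, had correlations of 0.16 and 0.20 over the members and of 0.075 and 0.067 over all genes. The part of base composition or length in the result was not tested.

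Genes that work with the ribosome were taken from lists by function, and their counts stand beside the same background of all tested genes, 3.66% higher and 7.79% lower over all libraries and 4.53% and 7.75% without hypoxia replicates 4 and 5. Among 18 elongation factors and other mRNAs known to start with a pyrimidine run, 4 rose and none fell over all libraries, with a median log2 fold change of 0.31. Without hypoxia replicates 4 and 5 the counts were again 4 and 0, with a median of 0.20, but Nap1l1, a histone chaperone, was called in place of Eif3f. At an unadjusted p under 0.05, 0 and 1 were lower in these fits, and limma voom called 0 lower in both. Naca, a chaperone of nascent chains at the ribosome, measured 24.4 ± 0.82 FPKM in the controls and 36.3 ± 5.1 FPKM under hypoxia (SD, n = 5 each, log2 fold change 0.55, adjusted p = 0.00642, limma, and 0.48, adjusted p = 0.0111, without the 2 libraries). Eif4b, Eif3e and Eif3f, which help to load mRNA onto the small subunit, had log2 fold changes of 0.58, 0.53 and 0.46 (adjusted p = 0.0153, 0.0189 and 0.0412). Without the 2 libraries they had 0.64, 0.43 and 0.34 (adjusted p = 0.0202, 0.00785 and 0.0617), and Nap1l1 had 0.29 (adjusted p = 0.0477).

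Host genes of small nucleolar RNAs, whose spliced transcripts also start with pyrimidines, rose in 4 of 9 cases and fell in none, in both fits. Their median was 0.51 over all libraries and 0.45 without the 2. Snhg1 measured 1.74 ± 0.093 FPKM in the controls and 3.29 ± 0.44 FPKM under hypoxia (SD, n = 5 each, log2 fold change 0.75, adjusted p = 0.00164, limma). Gas5, Snhg6 and Snhg12 had log2 fold changes of 0.56, 0.52 and 0.51. Without the 2 libraries Snhg1 had 0.72 and the other 3 had 0.52, 0.43 and 0.58, each past the threshold. All hypoxia libraries lay above all controls for each of these 4. At an unadjusted p under 0.05, 7 were higher and 0 lower in both fits, and limma voom called 4 and 5 higher and 0 lower.

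Of 34 initiation factors outside that list, 1 rose and 5 fell, and without hypoxia replicates 4 and 5 the counts were 1 and 3. Their medians were -0.036 and -0.0044, and with scaling that leaves out the 100 most abundant genes they were 0.035 and 0.072, with 2 higher and 2 lower over all libraries. Eif4g3 and Eif4g1, the scaffolds that bridge the mRNA cap and the small subunit, fell by 0.60 and 0.39 on the log2 scale (adjusted p = 0.0023 and 0.00526, limma). Eif5a, which relieves stalled peptide bond formation, fell by 0.29, and Eif3m, a subunit of the largest initiation factor complex, rose by 0.39. These 4 also passed without the 2 libraries, at -0.50, -0.36, -0.30 and 0.32.

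Of 48 factors that build ribosomes, 3 rose and 4 fell over all libraries (6.25% and 8.33%) and 3 rose and 5 fell without hypoxia replicates 4 and 5 (6.25% and 10.4%). These shares are near those of all tested genes, so the named genes are given as single genes. The nucleolar chaperone Npm1 measured 44.7 ± 2.4 FPKM in the controls and 73.5 ± 13 FPKM under hypoxia (SD, n = 5 each, log2 fold change 0.70, adjusted p = 0.00659, limma). Gnl2, a nucleolar GTPase, had a log2 fold change of 0.36. Nhp2 of the pseudouridine-forming complex measured 45.9 ± 6.3 FPKM in the controls and 22.6 ± 6.9 FPKM under hypoxia, and it fell by 1.05 on the log2 scale (adjusted p = 0.0095). Rrs1, an assembly factor of the large subunit, fell by 0.50 (adjusted p = 0.0195). Without the 2 libraries Npm1, Gnl2, Nhp2 and Rrs1 had 0.65, 0.31, -0.99 and -0.54, each past the threshold. Of 12 chaperones and import receptors for ribosomal proteins, Ipo5 rose and Bccip fell (log2 fold change 0.40 and -0.23) in both fits.

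None of 26 genes of mTORC1 and MYC control passed over all libraries (limma; 2 were higher and 5 lower at an unadjusted p under 0.05, and limma voom called 1 higher). Without hypoxia replicates 4 and 5, 2 rose, of which Myc, a transcription factor that drives ribosome production, had means of 1.96 FPKM in the controls and 3.41 FPKM in hypoxia replicates 1 to 3 (log2 fold change 0.67, adjusted p = 0.0431, limma). The other was Rps6kb2, an S6 kinase, at 0.679 and 1.83 FPKM (log2 fold change 1.02, adjusted p = 0.0464, limma). Its level was low and varied, from 0.153 to 1.04 FPKM in the controls, with 0.076 and 0.775 FPKM in hypoxia replicates 4 and 5. Over all libraries its log2 fold change was 0.45 (adjusted p = 0.484, limma). None of 11 transcription factors linked to ribosomal protein promoters passed in either fit (limma; 4 and 2 were higher at an unadjusted p under 0.05, and limma voom called 1 and 3 higher). Sp1 had a log2 fold change of 0.24 (adjusted p = 0.0600) and Yy1 one of -0.08 (adjusted p = 0.410) over all libraries. Among 17 genes of ribosome stress, Mdm4 rose and Gcn1 and Ccng1 fell over all libraries, and Gcn1 alone fell without the 2.

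Proteins of the mitochondrial ribosome, which translates the mRNAs of the mitochondrial genome and shares no subunit with the cytosolic one, had more lower than higher values. Of 76 tested, none rose and 27 fell over all libraries, and none rose and 19 fell without hypoxia replicates 4 and 5. Their median log2 fold changes were -0.25 and -0.18. At an unadjusted p under 0.05, 3 and 4 were higher and 44 and 33 lower in these fits, and limma voom called 2 and 1 higher and 19 and 17 lower. Mrpl54 measured 46 ± 4.7 FPKM in the controls and 27.7 ± 3.5 FPKM under hypoxia (SD, n = 5 each) and fell by 0.73 on the log2 scale (adjusted p = 0.00303, limma). Mrps7 measured 37.1 ± 1.7 and 24.4 ± 3.0 FPKM and fell by 0.60 (adjusted p = 0.00387). Without the 2 libraries they had log2 fold changes of -0.66 and -0.52, both past the threshold. The difference between the cytosolic and the mitochondrial list was not itself tested.

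**Figure D5:**
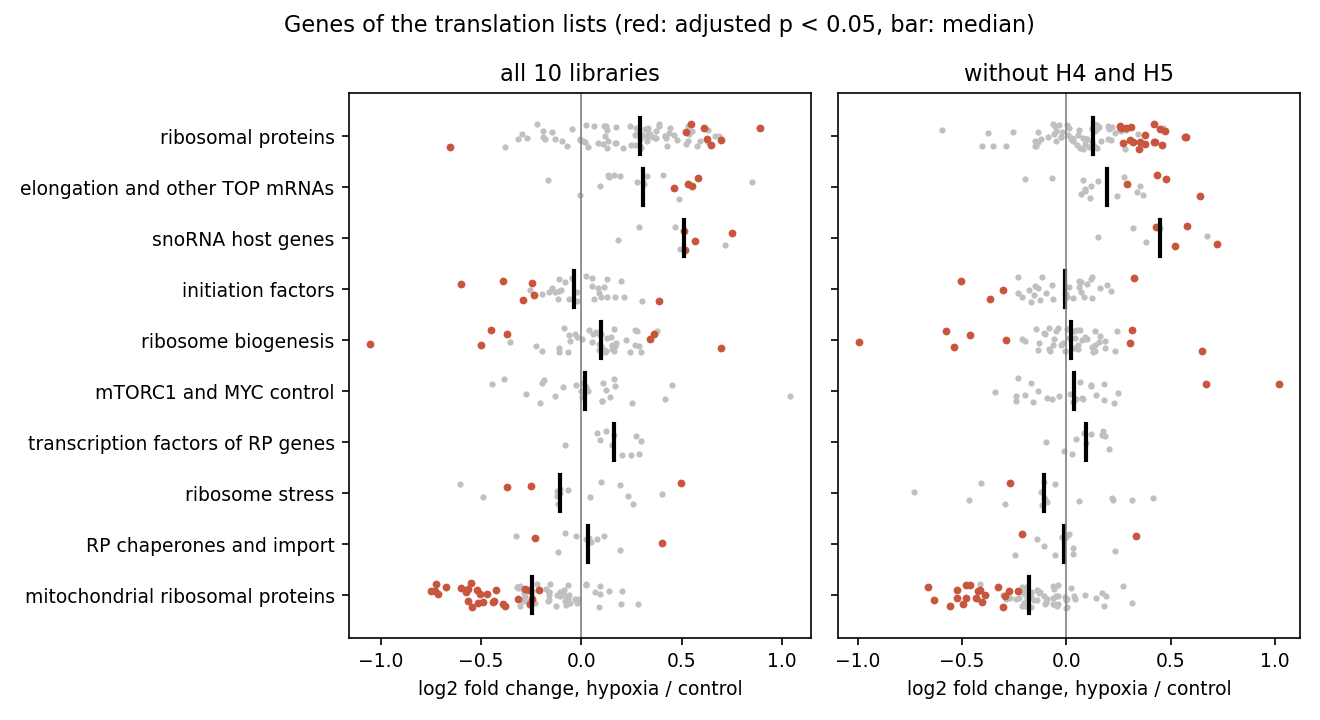
Log2 fold change of each tested gene of the lists, over all 10 libraries (left) and without hypoxia replicates 4 and 5 (right), with genes past an adjusted p of 0.05 in red and the median of each list as a bar. The bar stands at 0.29 and 0.13 for the cytosolic ribosomal proteins and at -0.25 and -0.18 for the mitochondrial ones.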

How the data were processed

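The authors deposited one table of FPKM values per gene for 10 kidney libraries, with gene lengths in bases, which are 1 value per gene for all libraries. HISAT2 2.0.5 is named in the submitters' processing notes, together with the human build hg38, although the gene identifiers are those of mouse and the coordinates of all 87 members match GRCm38 (GENCODE M21). The counting tool was not given in the sources used here. FPKM times length gave whole reads for 100% of values (tolerance 0.05), and median-of-ratios factors computed on the deposited FPKM were all equal, so that scaling was already applied. Libraries were grouped by the treatment label.

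Genes averaging 0.5 FPKM or more were tested with limma 3.58.1 in R 4.3.3 on log2(FPKM + 0.5), with trend and robust moderation, 2-sided, with Benjamini-Hochberg adjustment over all tested genes and a threshold of 0.05. On simulated data, 73% of 100 genes changed by 0.5 (log2) and 99.0% of 99 changed by 1 were recovered among 14553 genes, with 14 false calls. Whether these rates hold for the deposited libraries, where some hypoxia libraries stood apart, was not tested. In the fit over all libraries, Rpl7 passed (log2 fold change 0.52, SE 0.13, adjusted p = 0.0307, limma). Rps3a1 missed at a log2 fold change that was also 0.52 (SE 0.16, adjusted p = 0.0596, limma). Where a sample's reads fall to 3 or fewer, a level is not distinguishable from 0 by counting alone. Alternatives covered the pseudocount, the filter, the scaling, limma voom on recovered reads, a replicate block and each library left out. Plots were made in Python 3.11.15 (matplotlib 3.10.9).

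The members and lists were chosen with earlier results of these data known. Members to be named were up to 8 past the threshold in each direction, taken by smallest p, the 3 highest and 3 lowest standard subunits in the controls, the tested paralogs, the stalk proteins, Rps27a and Rps19bp1. In other lists they were up to 4 past the threshold, again by smallest p. Other genes named (Rps29, Rpl38, Rpl41, Rpl11, Rpl21, Rpl17, Rps27, Sp1, Yy1, Fau, Rack1, Nap1l1 and the members called without hypoxia replicates 4 and 5) were chosen after their values were seen, as was the use of pseudogene reads. Rpl41 and Rps23rg1 were placed by role after their names were seen. Promoter windows came from RefSeq (GRCm38.p6). A few genes are not reported here by name, in the text or the plots.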

Additional observations from a re-analysis of the deposited data

Results flagged for a closer look

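Among 24 sums and named genes examined in each group of 5 libraries, hypoxia replicate 5 lay far above the other hypoxia libraries for most of those that stood out. A library was singled out where its gap to the nearest other library was more than 0.71 of the whole range of the group, a limit that chance passes in about 1 group of 20. For hypoxia replicate 5 this share was 0.874 for the summed FPKM of the 87 ribosomal protein genes, 0.792 for their median log2 deviation and 0.941 for the summed FPKM of their pseudogenes. Among the small subunit genes it was 0.743 for Rps4x, 0.75 for Rps12, 0.832 for Rps14, 0.839 for Rps3a1 and 0.766 for Rps27a. Among the large subunit genes it was 0.759 for Rpl5, 0.786 for Rpl3 and 0.790 for Rpl7, and in the stalk 0.753 for Rplp0, 0.894 for Rplp1 and 0.801 for Rplp2. The same library had the highest B cell, T cell, macrophage, neutrophil, red cell and pancreas acinar marker sums, and their part in these values was not tested. In the controls, replicate 3 stood out for Rps27a with a share of 0.799.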

How the results depend on the processing

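The median log2 fold change of the ribosomal protein genes stayed positive under every alternative run, from 0.13 without hypoxia replicates 4 and 5 to 0.37 with limma voom on recovered reads, and leaving out 1 library gave 0.14 to 0.36. The count of genes past the threshold was less stable than the direction. Against 7 higher and 1 lower, a filter of at least 2 FPKM gave 12 and 0, no filter 1 and 0, scaling without the 100 most abundant genes 16 higher, upper quartile scaling 15 higher, and limma voom 11 higher. Leaving out 1 library gave 0 to 25 higher and 0 to 4 lower, with 0 higher without control replicate 1, 3 or 5, 1 without control replicate 2 and 2 without control replicate 4. Without hypoxia replicates 4 and 5 the counts were 19 and 0. In that fit, chosen after seeing the data, scaling without the 100 most abundant genes gave 30 and 0, limma voom 29 and 0, and added pseudogene reads 20 and 0. The cause was not tested, except that no filter tests more genes (30650) and leaving out libraries uses fewer. Over all genes, the main split of 559 higher and 1189 lower became 912 and 772 with scaling without the 100 most abundant genes, 750 and 835 with upper quartile scaling and 791 and 923 with limma voom. It was 523 and 1254 of 10931 with the filter of 2 FPKM, and 263 and 703 of 30650 with no filter. Leaving out 1 library gave 221 to 1094 higher and 603 to 1630 lower. Without hypoxia replicates 4 and 5 the split over all 14724 genes was 667 and 1141. There it became 1118 and 786 with scaling without the 100 most abundant genes, 1100 and 977 with limma voom, and 669 and 1141 with added pseudogene reads.

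Replicate numbers are shared between the groups, but the deviations of libraries with the same number correlated between -0.077 and 0.086, so the numbers are not taken to pair the libraries. With the replicate block the counts were 1 higher and 0 lower among the members and 265 and 734 over all genes, with a median of 0.29. Of the 522 values of the 21 named members under the alternatives, 30 changed sign, all of them in genes that did not pass the test. Scaling without the 100 most abundant genes gave 0.0012 for Rps27l, 0.021 for Rpl22l1 and 0.065 for Rps27a. Upper quartile scaling gave 0.038 for Rps27a, and limma voom gave 0.00096, 0.019 and 0.065 for Rps27l, Rpl22l1 and Rps27a. Without hypoxia replicates 4 and 5 the values were -0.021 for Rplp1, 0.054 for Rpl24, 0.0041 for Rpl22l1, -0.025 for Rplp2 and -0.066 for Rps19bp1, and adding pseudogene reads there gave the same 5 values to this precision. Scaling without the 100 most abundant genes in those libraries gave 0.11 for Rpl24, 0.030 for Rps27l and 0.079 for Rpl22l1, and limma voom there gave 0.087 for Rpl24, 0.048 for Rpl22l1 and -0.026 for Rps19bp1. With pseudogene reads added over all libraries Rps27a was at 0.0071. Leaving out 1 library gave -0.19 to 0.22 for Rps27a, -0.12 to 0.062 for Rpl22l1 and -0.015 to 0.18 for Rplp1. Leaving out 1 library at a time, Rpl5 kept its call in 7 of 10 fits, Rpl3 in 6, Rps12 and Rpl3l in 4, Rpl7 and Rps4x in 3, and Rpl26 and Rps14 in 2, with no adjusted p above 0.0939 (limma). Rpl3l, at 11 to 44 reads, and Rps10, at 17 to 38, are limited by depth.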
